A study of Drosophila melanogaster with 7 samples.

Results

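Cells of the optic lobe neuroepithelium were selected from single cell transcriptomes of dissociated first instar larval brains of Drosophila melanogaster. A cell was a member when it passed the quality filters (more than 200 and fewer than 4500 genes, and less than 20% of its UMIs from mitochondrial genes), held at least 1 UMI of 2 or more of the genes Ocho, Tom and Brd, and held UMIs of fewer than 3 of the neuronal genes nSyb, Syt1, elav and brp. A UMI, or unique molecular identifier, tags 1 captured transcript, so that amplified copies are counted once. The rule found 150 members among 8696 cells that passed the filters and 9353 deposited cells. Of these, 74 held all 3 genes and 76 held exactly 2.

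The animals were Wild type CS larvae (Canton-S in the methods) kept at 25 °C, and each library pooled the brains of many larvae. Starved larvae had spent 4 hr on 2% agar humidified with PBS, from 11 hr after hatching according to the labels and from a later hour according to the methods. Their brains gave 2 replicates, Starvation A with 2 libraries and Starvation B with 1. Larvae in the normal condition stayed on cornmeal food and gave 3 replicates, Normal A and Normal C with 1 library each and Normal B with 2. The replicate of a library is not in its label. It was inferred from the number of cells and the median genes and UMIs of each experiment in the supplementary list of the study.

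The optic lobe neuroepithelium is a sheet of polarised progenitor cells at the surface of each brain lobe. In the young larva its cells divide symmetrically and the sheet expands, and later its edges are converted into neuroblasts, which divide asymmetrically. Notch signalling holds the cells in the epithelial state. Ocho, Tom and Brd encode small proteins of the Bearded family, which inhibit the ubiquitin ligase Neuralized and thereby the endocytosis of the Notch ligand Delta. The 3 genes lie in the Bearded complex on chromosome 3L of the BDGP6 assembly, Tom from 14969344 to 14970306, Brd from 14972667 to 14973198 and Ocho from 14974848 to 14976040, all on the plus strand.

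Most members were found to share their barcode with a deeper cell of another library, which bears on every result. A cell was marked when its barcode held more than 3 times as many UMIs in another library. Of the 150 members 90 were marked, or 60%, against 11.7% of the other cells that passed the filters and 34.3% of the neuroblasts that the members are compared with. Of the 60 members that were not marked, 19 also had their barcode in another library. The 90 marked members carried 47 distinct barcodes, and in all members there were 96. A marked member held a median of 5.46% of the UMIs of its deepest barcode (range 3.93% to 17.1%), and a median of 97.7% of its genes were found there too. All 47 deepest barcodes held 2 or 3 of the rule genes, and 24 of them had failed the quality filters.

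The shared barcodes crossed the conditions. Starvation A had 57 members, of which 32 were marked, and 23 of these were deepest in Normal B. Normal B had 73 members, of which 58 were marked, and 43 of these were deepest in Starvation A. Starvation B had 9 members, Normal A had 2 and Normal C had 9, and none of them was marked. Without the marked cells 60 members remained, 25 in Starvation A, 9 in Starvation B, 2 in Normal A, 15 in Normal B and 9 in Normal C.

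**Figure D1:**
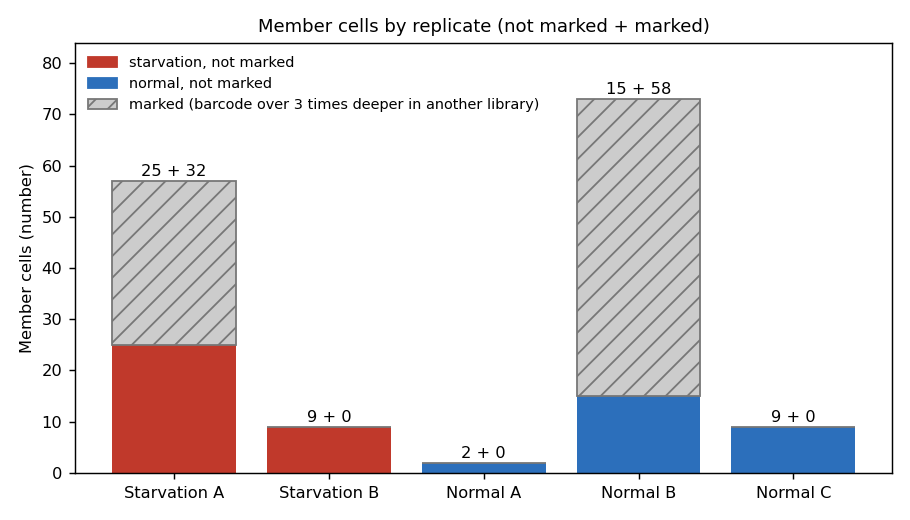
Number of member cells (y axis) in each of the 5 replicates (x axis), with cells whose barcode was more than 3 times deeper in another library hatched in grey. The 90 marked members lie in Starvation A (32 of 57) and Normal B (58 of 73) only.

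Levels in marked members went with the library where their barcode was deepest rather than with the condition of their own library. The heat shock gene Hsp83 had 2239 CPM (UMIs of a gene per 1000000 UMIs of the summed cells) in marked members of Starvation A that were deepest in Normal B, and 191 CPM in those deepest in Starvation A. In marked members of Normal B it had 329 CPM where the deepest barcode was in Starvation A and 2165 CPM where it was in Normal B. E(spl)m8-HLH, a repressor induced by Notch, showed the reverse order. It had 47.9 CPM (deepest in Normal B) and 709 CPM (deepest in Starvation A) in the marked members of Starvation A, and 787 CPM (deepest in Starvation A) and 25.8 CPM (deepest in Normal B) in those of Normal B. Results are therefore given with and without the marked cells, and values per replicate are from the 60 members that were not marked unless stated otherwise.

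**Figure D2:**
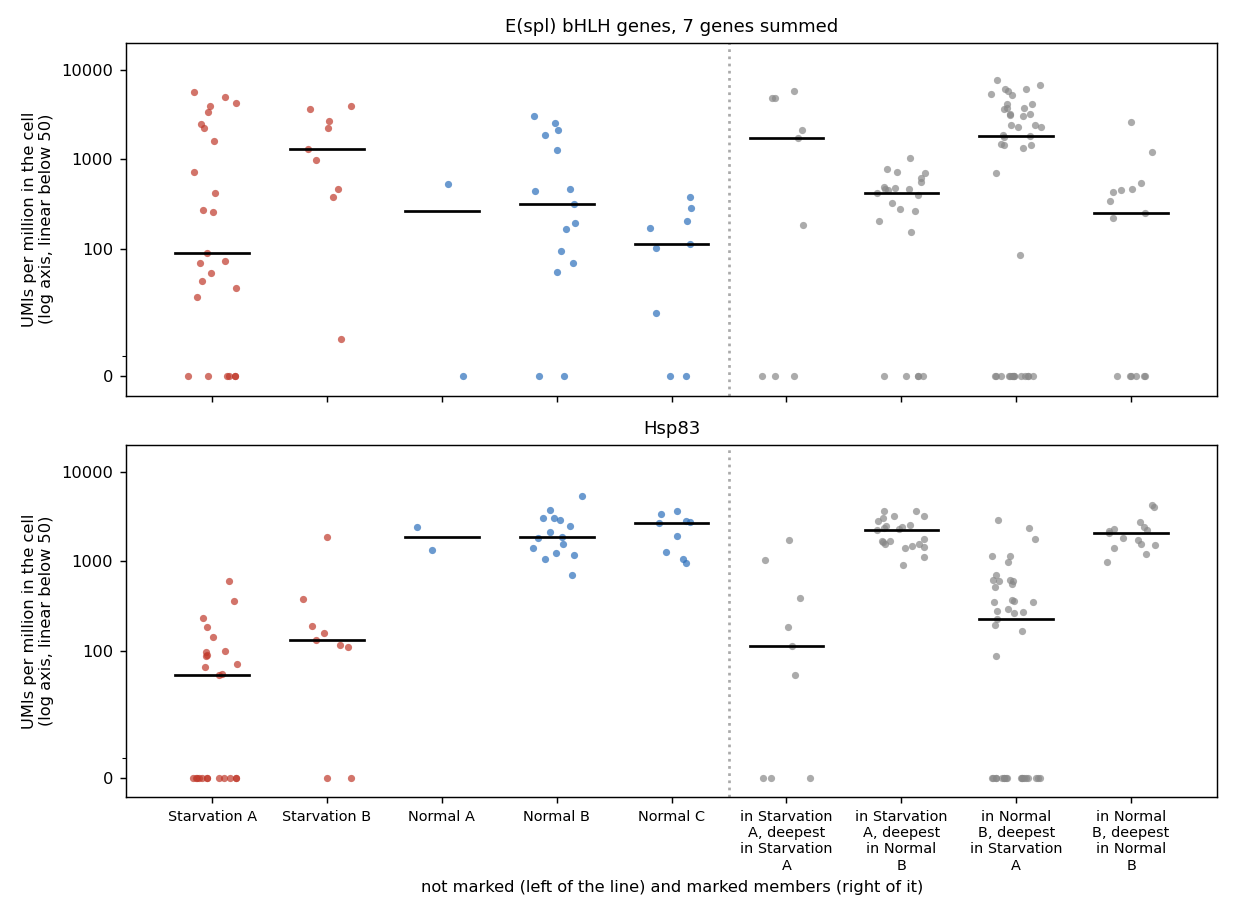
Summed E(spl) bHLH genes (top) and Hsp83 (bottom) in each member cell, in CPM of that cell on a log axis that is linear below 50, with black bars at medians. Cells not marked stand left of the dotted line by replicate and marked cells right of it by replicate and by the replicate of their deepest barcode. Marked cells in Normal B that were deepest in Starvation A had a median Hsp83 of 229 CPM, against 2045 CPM for those deepest in Normal B.

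The depth of the libraries differed. The 7 libraries held 5359444 to 25232852 UMIs, and the median UMIs per cell lay between 2228 (Normal A) and 13486 (Normal C). The 60 members had a median of 15831 UMIs per cell, and their sums per replicate were 467651 UMIs in Starvation A, 169502 in Starvation B, 9713 in Normal A, 211153 in Normal B and 300084 in Normal C. Normal A, with 2 members, entered no fit. No doublets were removed. The automatic threshold of the caller Scrublet changed with numerical rounding and was not used. Of the cells with the highest 5% of Scrublet scores in their library, 3 were members.

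The level of the rule genes chose the members and is given as a description. Summed over Ocho, Tom and Brd, the 60 members held a median of 1021 CPM per cell, with a range of 36.9 to 5104 CPM. Of these, 36 cells held 500 CPM or more and 24 held less, in cells with a median of 12232 and 21834.5 UMIs. The cells below 500 CPM were unevenly spread. They were 11 of 25 in Starvation A and 3 of 9 in Starvation B. In the normal replicates they were 1 of 2 in Normal A, 3 of 15 in Normal B and 6 of 9 in Normal C. Of the cells at 500 CPM or more, 29 of 36 held ft or wb, against 9 of 24 of the cells below, and 32 of 36 held stg, against 11 of 24. These genes were called higher in the same members in the comparison below, so the split is no separate check of identity. Pooled over the cells, the cell adhesion gene Fas2 had 1605 CPM at 500 CPM or more and 336 CPM below. The neuroblast genes dpn, ase, wor and mira together had 101 CPM at 500 CPM or more and 291 CPM below.

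Cells next to the limits of the rule were alike in part. Of 274 cells that passed the filters with 2 or 3 rule genes, 124 were left out for 3 or 4 neuronal genes, and 57 of these had exactly 3. The 53 cells with exactly 3 that were not marked had median rule gene levels of 512 CPM and 1453 CPM of Fas2. Members with exactly 2 rule genes had 177 CPM of Fas2 and those with all 3 had 1727 CPM. The 201 unmarked cells with a single rule gene had 135 CPM. A further 143 barcodes with 2 or 3 rule genes failed the filters, and 136 of these did so with 4500 or more genes.

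The detection of 2 rule genes was also frequent in neurons. Among unmarked cells with fewer than 3 neuronal genes, 60 of 2196 held 2 or 3 rule genes (2.73%, median 3156.5 UMIs). Among cells with all 4 neuronal genes, which should lack them, 66 of 3895 did (1.69%, median 8290 UMIs). With 500 CPM or more also required, the shares were 1.64% and 0.231%. Among unmarked cells with exactly 3 neuronal genes, 53 of 1511 held 2 or 3 rule genes (3.51%, median 5248 UMIs). With 500 CPM or more their share was 1.85%. Both shares lay above those of cells with fewer than 3 neuronal genes, so the level did not separate these cells from members.

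Markers of other classes were checked in the 60 members. The marker sums of neurons (8 genes) were 671 CPM in Starvation A, 336 CPM in Starvation B, 2780 CPM in the 2 cells of Normal A, 502 CPM in Normal B and 580 CPM in Normal C, against 7189 CPM in all other unmarked cells. The highest sum in a single member was 11787 CPM, in Starvation B, where the median cell had 233 CPM. The 5 ganglion mother cell markers together had 160 CPM over the 60 members, against 469 CPM in neuroblasts and 94.5 CPM in the other unmarked cells. Most of this came from the Notch ligand gene Dl (95.8 CPM) and the cell cycle inhibitor gene dap (48.4 CPM), and tap, insb and nerfin-1 had 8.63, 5.18 and 1.73 CPM. In Starvation A, 1 cell held more than 2000 CPM of ring gland genes, and the steroid hormone enzymes spok and phm had 1512 and 539 CPM there, against at most 6.66 and 3.33 CPM in the other replicates. Another cell of Starvation A held more than 2000 CPM of the astrocyte genes alrm and Gs2, and jhamt, an enzyme of juvenile hormone synthesis, had 843 CPM in Normal B. The glial marker sums were 2557 CPM in Starvation A, 265 CPM in Starvation B, 1338 CPM in Normal A, 379 CPM in Normal B and 1123 CPM in Normal C, and neuroblasts had 2474 CPM in Starvation A and 1777 CPM in Normal C. Of the defining glial gene repo there were 21.4 CPM in Starvation A, 0 CPM in Starvation B, 0 CPM in Normal B and 23.3 CPM in Normal C. Fbp1, Fbp2, Lsp2 and Adh of the fat body were at 0 in all 4 replicates, and apolpp, a lipoprotein gene, was at 513 CPM in Normal C. The 6 hemocyte markers together were at 0 to 104 CPM. The 9 imaginal disc markers together had 638 CPM over the 60 members, against 862 CPM in neuroblasts and 1474 CPM in the other unmarked cells. For the 6 muscle markers these sums were 108, 108 and 404 CPM. The part of such cells in the results below was not tested, apart from fits without the ring gland-rich cells. Among unmarked members only the cell of Starvation A counted as ring gland-rich. A cell of Normal B with 17670 CPM of the 6 ring gland markers, which include jhamt, did not count and stayed in these fits.

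The members are next compared with the closest progenitors of the brain, to describe which genes set the epithelium apart. Neuroblast-gated cells held UMIs of at least 2 of dpn, ase, wor and mira, of fewer than 2 rule genes and of fewer than 3 neuronal genes, and 406 of 618 were not marked. UMIs were summed per replicate and class, and edgeR's quasi-likelihood test was run with the replicate as a block and a Benjamini-Hochberg adjusted p of 0.05 as the limit. Genes of either gate were left out of the counts. In the replicates with 10 or more members, Starvation A and Normal B, 767 of 5640 genes (13.6%) were called with all cells, 455 higher (8.07%) and 312 lower (5.53%) in members. Without the marked cells, 110 of 4545 genes (2.42%) were called, 78 higher (1.72%) and 32 lower (0.704%). All 110 were among the 767 with the same direction, but the cells of this fit are part of those of the larger fit. Each of these fits has 1 residual degree of freedom. Since both replicates held cells with the same barcodes in the larger fit, its sums may not be independent, and its p-values are not given. A fit of the unmarked cells over the 4 replicates with 3 or more members called 229 of 4105 genes (5.58%), 140 higher (3.41%) and 89 lower (2.17%), and its values follow.

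Of 5 genes of the Bearded family outside the rule, BobA and E(spl)m4-BFM were higher in members. BobA, a member of the family in the same complex (chromosome 3L, 14945499 to 14946125, minus strand), had 77.0, 47.2, 185 and 23.3 CPM in members of Starvation A, Starvation B, Normal B and Normal C, against 1.38, 0, 1.74 and 1.59 CPM in neuroblasts. E(spl)m4-BFM, a member of the family in the E(spl) complex (chromosome 3R, 26023821 to 26024579, minus strand), had 464, 549, 185 and 40.0 CPM in members and 12.8, 7.52, 0 and 1.59 CPM in neuroblasts. The ranges of members and neuroblasts did not overlap for either gene. The log2 fold changes were 5.80 ± 0.44 for BobA (SE, edgeR adjusted p = 1.25e-05) and 5.69 ± 0.31 for E(spl)m4-BFM (SE, edgeR adjusted p = 4.48e-07). BobA was found in 24 of 60 members (40%), 6 of 406 neuroblasts (1.48%) and 1.04% of cells with 3 or 4 neuronal genes, at median depths of 15831, 10717 and 7448 UMIs. The other 3 genes of the family list, E(spl)malpha-BFM, E(spl)m2-BFM and E(spl)m6-BFM, did not exceed 6.66 CPM in members of these replicates and were not tested.

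The bHLH genes of the E(spl) complex encode transcriptional repressors that Notch signalling induces. Of 7 genes in the list 5 were tested and 4 were higher in members, with a median log2 fold change of 1.33 against 0.01 over all genes. E(spl)m3-HLH had 133, 177, 80.5 and 33.3 CPM in members of Starvation A, Starvation B, Normal B and Normal C, against 10.1, 5.64, 0 and 3.18 CPM in neuroblasts (log2 fold change 4.28 ± 0.35 SE, edgeR adjusted p = 1.85e-05). E(spl)mgamma-HLH had 810, 330, 218 and 26.7 CPM in members and 110, 141, 3.48 and 8.74 CPM in neuroblasts (2.59 ± 0.41 SE, edgeR adjusted p = 0.00218). It was above the neuroblasts in every replicate, although the range over replicates overlapped. E(spl)m8-HLH (1.33 ± 0.25 SE, edgeR adjusted p = 0.00728) and E(spl)mbeta-HLH (1.15 ± 0.29 SE, edgeR adjusted p = 0.035) were also called. In Normal C the members stood below the neuroblasts for E(spl)m8-HLH, with the levels given further below. Of the Notch pathway genes themselves, 9 were tested and 1 was lower, the transcription factor Su(H) that Notch activates, at -1.75 ± 0.39 SE (edgeR adjusted p = 0.0205). The receptor gene N had 171, 189, 256 and 180 CPM in members and 166, 185, 266 and 256 CPM in neuroblasts.

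**Figure D3:**
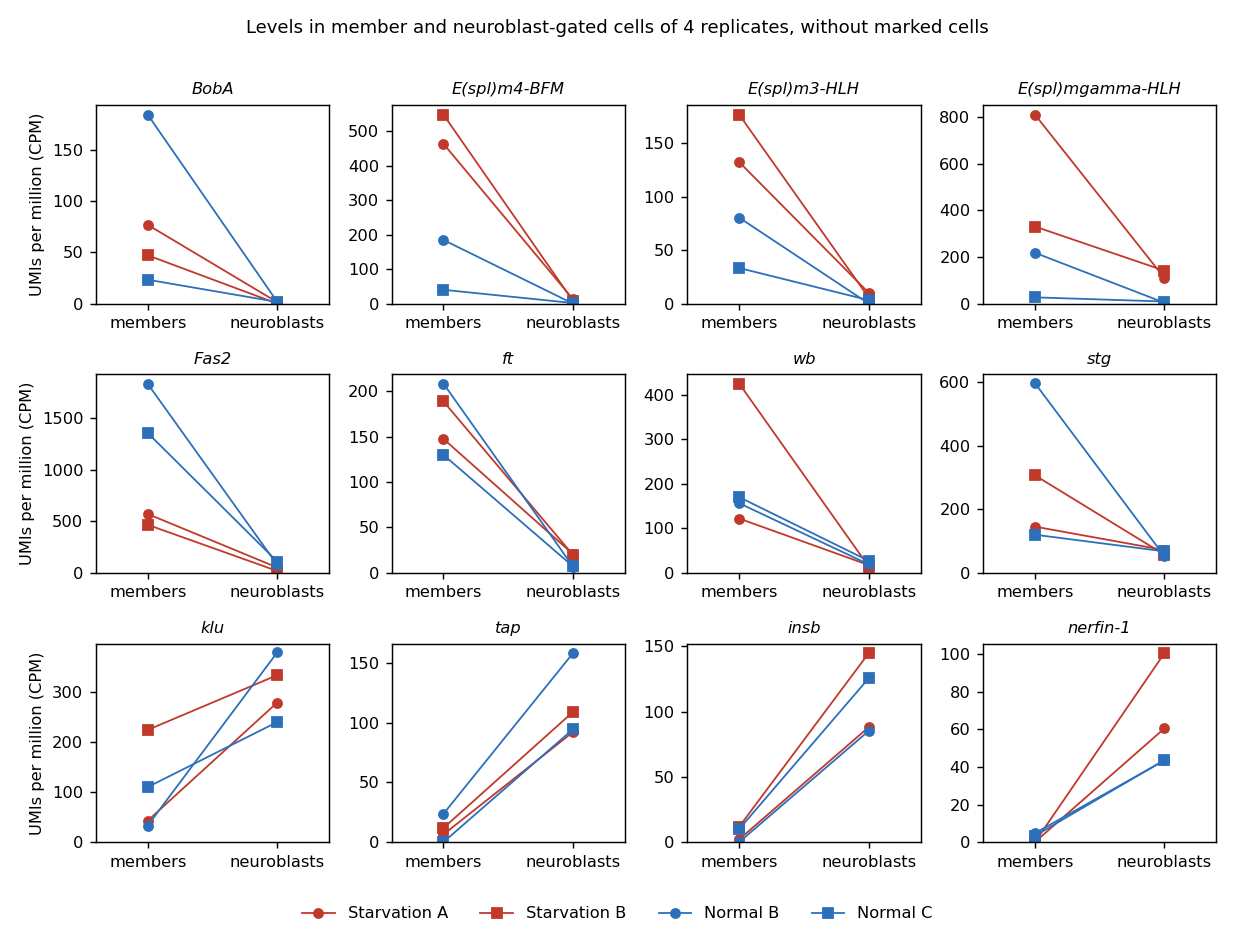
Levels of 12 genes in CPM of the summed cells (linear axes from 0, a scale per gene), in members (left) and neuroblast-gated cells (right) of 4 replicates without marked cells, with lines joining the sums of 1 replicate. BobA, E(spl)m4-BFM, Fas2 and ft were above the neuroblasts in every replicate, and tap, insb and nerfin-1 were below them in every replicate.

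Fas2, an immunoglobulin adhesion protein of epithelia and axons (X chromosome, 4132887 to 4206093, minus strand), had 571, 466, 1833 and 1356 CPM in members of Starvation A, Starvation B, Normal B and Normal C, against 51.8, 17.9, 78.2 and 110 CPM in neuroblasts. All replicates of members stood above all replicates of neuroblasts (log2 fold change 4.10 ± 0.21 SE, edgeR adjusted p = 4.37e-07). Fas2 is not confined to this class, since the other unmarked cells held 649 CPM. The atypical cadherin gene ft, which acts upstream of the Hippo pathway and in planar polarity (chromosome 2L, 4198404 to 4221796, minus strand), had 148, 189, 208 and 130 CPM in members and 20.6, 19.7, 6.95 and 7.15 CPM in neuroblasts (3.60 ± 0.28 SE, edgeR adjusted p = 1.32e-05). The laminin alpha chain gene wb (chromosome 2L, 14263027 to 14328262, plus strand) had 122, 425, 156 and 170 CPM in members and 17.4, 14.1, 19.1 and 27.0 CPM in neuroblasts (3.41 ± 0.32 SE, edgeR adjusted p = 4.23e-05). Neither ft nor wb overlapped between the classes. UMIs of ft were found in 36 of 60 members (60%), 13.8% of neuroblasts and 3.05% of cells with 3 or 4 neuronal genes.

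Other epithelial genes differed less. Of 14 tested genes of adhesion and polarity, 2 were higher and none was lower, Fas2 and the Crumbs complex scaffold gene sdt (1.35 ± 0.28 SE, edgeR adjusted p = 0.0145). The apical determinant gene crb (1.21 ± 0.33 SE, edgeR adjusted p = 0.0523) and the E-cadherin gene shg (0.97 ± 0.27 SE, edgeR adjusted p = 0.0570) did not pass. Of 8 tested genes of the list for Fat, Hippo and growth 2 were higher, ft and wb, of which wb is the laminin gene. Of 6 tested optic lobe patterning factors the homeobox gene Optix was lower (-1.59 ± 0.35 SE, edgeR adjusted p = 0.0194), with 17.1, 88.5, 9.47 and 110 CPM in members and 106, 118, 158 and 269 CPM in neuroblasts. The ranges overlapped.

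Further called genes were the ETS repressor gene aop, with 154, 183, 175 and 147 CPM in members and 24.8, 25.4, 20.9 and 26.2 CPM in neuroblasts (2.82 ± 0.19 SE, edgeR adjusted p = 4.15e-06). The cystathionine beta-synthase gene Cbs (3.23 ± 0.28 SE) and the genes Reg-5 (3.55 ± 0.32 SE) and CG15784 (2.92 ± 0.34 SE) completed the 10 largest rises at average log2 CPM over 5. The Cdc25 phosphatase gene stg, which drives entry into mitosis, had 145, 307, 597 and 120 CPM in members and 71.6, 57.3, 52.2 and 67.5 CPM in neuroblasts. It was the single called gene of 12 tested genes of G2 and mitosis (2.01 ± 0.35 SE, edgeR adjusted p = 0.00514). None of 11 tested S phase genes was called.

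Several genes of asymmetric division and of differentiating daughters were lower in members. The genes nerfin-1, insb and tap of ganglion mother cells had log2 fold changes of -4.84 ± 0.56, -4.19 ± 0.38 and -3.50 ± 0.38 (SE, edgeR adjusted p = 0.000268, 3.45e-05 and 0.000165). The other markers of that class, Dl and dap, held most of its marker UMIs in members. With all cells in Starvation A and Normal B, Dl was at 0.15 ± 0.18 (SE) on the log2 scale. For tap the levels were 6.42, 11.8, 23.7 and 0 CPM in members of Starvation A, Starvation B, Normal B and Normal C, against 92.2, 109, 158 and 94.5 CPM in neuroblasts, and the classes did not overlap. Of 6 tested genes of the proneural and transition list 3 were lower, the neuroblast factor klu (-1.65 ± 0.35 SE), the differentiation factor pros (-1.61 ± 0.28 SE) and the spindle adaptor gene insc (-2.17 ± 0.51 SE). The Notch regulator spdo (-2.78 ± 0.37 SE), the Sox gene D (-2.64 ± 0.38 SE), the zinc finger genes cas (-2.23 ± 0.24 SE) and Sp1 (-2.25 ± 0.60 SE) and the noncoding lncRNA:CR45388 (-2.32 ± 0.26 SE) and lncRNA:noe (-2.30 ± 0.20 SE) were the other named decreases. Of 14 tested genes of the TORC1 and foxo list 3 were lower, the TORC1 inhibitors scyl (-0.97 ± 0.13 SE) and chrb (-0.80 ± 0.20 SE) and the gene hdc (-0.62 ± 0.08 SE). None of 13 ribosome biogenesis genes and none of 8 heat shock genes was called, and 1 of 12 glycolysis genes was higher, Gapdh2 (0.44 ± 0.10 SE).

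These counts moved with the cells summed. Without the block 34 genes were called, and with each cell thinned to 1000 UMIs 17 of 446 tested. Leaving out Starvation A gave 110 calls, and the other replicates 159 to 278. With members at 500 CPM or more of the rule genes 221 were called, of which 139 were shared with the 229 (60.7% of the 229 and 62.9% of the 221). With all cells in Starvation A and Normal B the ring gland genes nvd, spok, sad and phm were among the 10 largest rises, at 6.12, 5.95, 5.11 and 4.92 on the log2 scale, and 12 of the 13 members with more than 2000 CPM of ring gland genes were marked. In the fit without marked cells spok (5.76 ± 0.47 SE, edgeR adjusted p = 0.00141) and phm (4.49 ± 0.35 SE, edgeR adjusted p = 0.00266) were called in these replicates as well, with 94.9% and 81.3% of their UMIs in Starvation A from a single cell. None of the 6 ring gland markers was tested in the fit of the 4 replicates.

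The share of members was compared between conditions. Members were 1.65% of the cells of Starvation A (95% Wilson interval 1.27% to 2.13%) and 1.01% of Starvation B (0.534% to 1.91%), against 0.162% of Normal A (0.0444% to 0.589%), 3.16% of Normal B (2.52% to 3.96%) and 1.12% of Normal C (0.589% to 2.11%). The means were 1.33 ± 0.45% in starvation and 1.48 ± 1.53% in normal replicates (SD, n = 2 and 3, two-sided exact permutation p = 1). Without the marked cells the shares were 0.780% and 1.02% in Starvation A and B, against 0.163%, 1.02% and 1.12% in Normal A, B and C (exact permutation p = 1). After thinning to 1000 UMIs they were 0.520% and 0.676%, against 0%, 1.34% and 0.621% in Normal A, B and C (exact permutation p = 1). The 0 of 1235 cells of Normal A allow a share of up to 0.243% at a floor of 3 cells, and up to 0.310% by the Wilson interval. The smallest p this design allows is 0.2. Intervals cover counting error only.

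Starvation was then compared with the normal condition within the members. With the planned minimum of 10 members only Starvation A and Normal B remained, which allows no test, so replicates with 3 or more members were compared, 2 against 2. With all cells 0 of 3478 genes (0%) were called by edgeR, 203 had an unadjusted p under 0.05 and DESeq2 called 0. Replicates did not overlap for 16.2% of these genes with starvation higher and for 29% with starvation lower. Without the marked cells 5 of 2653 genes (0.188%) were called, 2 higher (0.0754%) and 3 lower (0.113%) in starvation, and 509 had an unadjusted p under 0.05. DESeq2 called 47 of the same genes tested, all 5 among them. The replicates of the conditions did not overlap, with starvation higher, for 17.6% of the tested genes and with starvation lower for 35.9%.

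Of the heat shock genes 3 were lower in starved members. Hsp83, the Drosophila Hsp90 (chromosome 3L, 3192969 to 3197059, plus strand), had 101 and 159 CPM in Starvation A and B, against 2240 and 2426 CPM in Normal B and C. Its log2 fold change was -3.89 ± 0.41 (SE, edgeR adjusted p = 0.0312), and -2.09 ± 0.61 with the marked cells (SE, edgeR adjusted p = 0.746). The 2 cells of Normal A, outside the fit, held 1750 CPM. Hsp68 had 0 of 637153 UMIs in the 2 starvation replicates and 71 of 511237 in the 2 normal replicates, and Hsp70Bc, also an inducible chaperone of the Hsp70 family, had 0 and 75. Against a floor of 3 UMIs over the starvation replicates they were at least 29.5-fold and 31.2-fold lower in starvation (edgeR adjusted p = 0.0465 for both). Hsp70Bc is 1 of several near-identical copies, so its reads may belong to others. Of 10 genes in the list 8 were tested, and 3 were called lower. For 7 both starvation replicates were below both normal replicates, against 35.9% of all tested genes. The median log2 fold change was -3.53, also with the 2 genes at 0 set to their bound (0.05 over all genes). Hsp26 had 38.5 and 64.9 CPM in starvation and 1032 and 646 CPM in normal replicates, and did not pass (edgeR adjusted p = 0.0578).

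The same direction was seen in the neuroblasts of these libraries. Hsp83 had 231 and 320 CPM in neuroblasts of Starvation A and B, against 2370 and 2736 CPM in those of Normal B and C. The test of the difference between the classes, an interaction of class and condition in edgeR, gave -0.98 ± 0.23 on the log2 scale (SE, edgeR adjusted p = 0.403). The other unmarked cells went the same way. Their sums of the 10 heat shock genes were 1688 and 2246 CPM in Starvation A and B, against 4107 and 5341 CPM in Normal B and C.

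Of the E(spl) bHLH genes 1 was higher in starved members. E(spl)m8-HLH (chromosome 3R, 26040240 to 26041008, plus strand) had 415 and 330 CPM in Starvation A and B, against 14.2 and 16.7 CPM in Normal B and C. The log2 fold change was 4.84 ± 0.52 (SE, edgeR adjusted p = 0.0312), and 1.13 ± 0.98 with the marked cells (SE, edgeR adjusted p = 0.766). Its UMIs came from 12 of 25 and 8 of 9 cells in Starvation A and B, against 2 of 15 and 3 of 9 cells in Normal B and C, and the cell with most UMIs gave 19.6% and 32.1% of those in Starvation A and B. In neuroblasts it had 145 and 147 CPM in Starvation A and B, against 1.74 and 19.1 CPM in Normal B and C, and the interaction was 0.96 ± 0.67 (SE, edgeR adjusted p = 0.986). All 5 tested E(spl) bHLH genes had positive fold changes, with a median of 1.74, and E(spl)m8-HLH alone was called. E(spl)mgamma-HLH, with 810 and 330 CPM in Starvation A and B against 218 and 26.7 CPM in Normal B and C, had 2.52 ± 0.91 (SE, edgeR adjusted p = 0.192). E(spl)m4-BFM had 464 and 549 CPM in Starvation A and B, against 185 and 40.0 CPM in Normal B and C (2.47 ± 0.71 SE, edgeR adjusted p = 0.160). With the marked cells E(spl)mgamma-HLH was at 0.80 and E(spl)m4-BFM at 1.25 on the log2 scale. BobA had -0.37 ± 0.84 (SE, edgeR adjusted p = 0.845). The fifth called gene was the noncoding lncRNA:CR34335, with 16525 and 18118 CPM in Starvation A and B, against 11617 and 10754 CPM in Normal B and C (0.92 ± 0.12 SE, edgeR adjusted p = 0.0465).

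**Figure D4:**
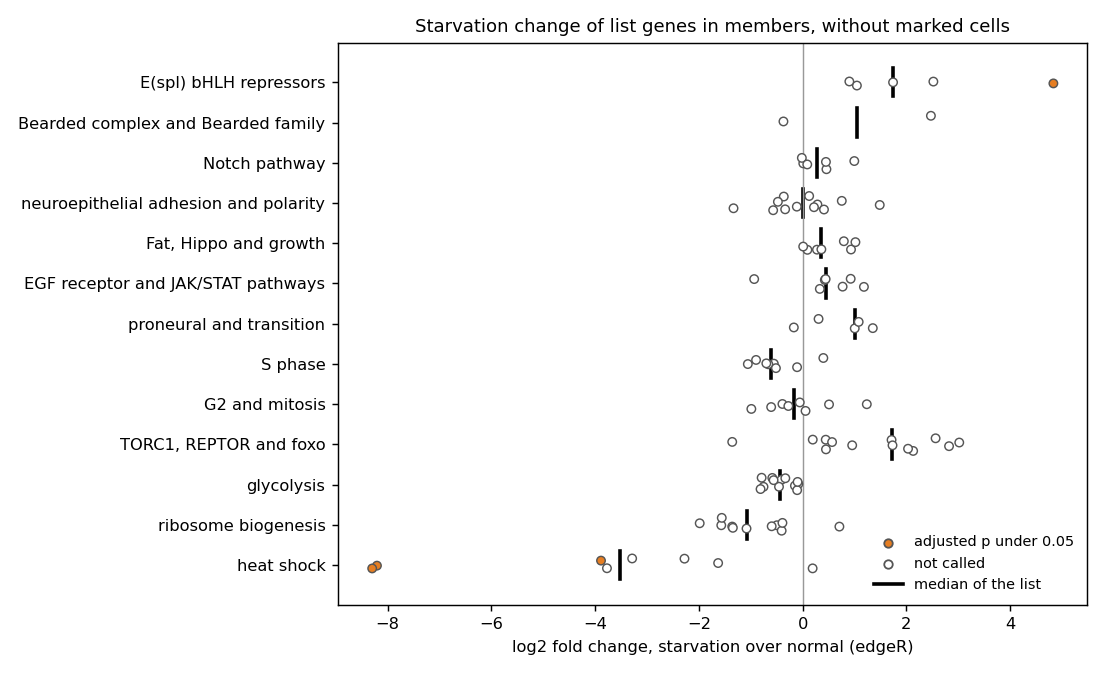
Log2 fold change of starvation over normal (x axis) for the tested genes of 13 lists in members without marked cells, 1 point per gene, filled where the adjusted p is under 0.05, with black bars at list medians. The 4 called list genes are E(spl)m8-HLH on the right and Hsp83, Hsp68 and Hsp70Bc on the left, where the fitted values of Hsp68 and Hsp70Bc, at 0 UMIs in starvation, are no bounds.

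The other lists held no called gene in this fit. For 13 tested genes of TORC1, REPTOR and foxo the median log2 fold change was 1.72. Against 17.6% of all tested genes, 7 of the 13 had both starvation replicates above both normal replicates. Of these 7, the paper already reports REPTOR-BP, Thor, unk, CG6770, CG11658 and CG16721 as affected by starvation in the same data. The comparison with all tested genes is therefore no independent test of the list. The insulin receptor gene InR was also among the 7, with 511 and 779 CPM in Starvation A and B, against 223 and 163 CPM in Normal B and C (2.03 ± 0.46 SE, edgeR adjusted p = 0.144), and the 2 cells of Normal A held 1030 CPM. For 11 ribosome biogenesis genes the median was -1.08, and 9 had both starvation replicates below both normal replicates, against 35.9% of all tested genes. The sum of this list was also lower in unmarked neuroblasts, with 1870 and 2052 CPM in Starvation A and B, against 5289 and 3182 CPM in Normal B and C. In the other unmarked cells it had 882 and 927 CPM, against 2029 and 1887 CPM. Whether the change of the list was particular to members was not tested. One of the 9, nop5 (-1.36 ± 0.46 SE), is also in the TORC1 list, where it was the 1 gene with both starvation replicates lower. The snoRNP gene Nop56 had 141 and 76.7 CPM, against 672 and 400 CPM (-1.98 ± 0.51 SE, edgeR adjusted p = 0.147). All 12 glycolysis genes (median -0.43) and 7 of 8 S phase genes (median -0.61) had negative fold changes, where 52.0% of all tested genes had positive ones. Both starvation replicates were below both normal replicates for 3 of 12 glycolysis genes and 3 of 8 S phase genes, against 35.9% of all tested genes. The median of 12 genes of adhesion and polarity was 0.01. Fas2 had -1.33 ± 0.36 (SE, edgeR adjusted p = 0.148).

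The calls depended on which cells were summed. A batch term set Starvation B and Normal C, samples 7 and 6 in the labels, apart from Starvation A and Normal B. The labels name no such batch. With this term none of the 2653 genes was called and 414 had an unadjusted p under 0.05. The adjusted p of all 5 genes was 0.282, with log2 fold changes of -3.91 for Hsp83 and 4.82 for E(spl)m8-HLH. With members at 500 CPM or more of the rule genes 184 of 1391 genes (13.2%) were called, 103 higher (7.4%) and 81 lower (5.82%), including all 5. In that fit 7 of 8 heat shock genes were lower, 3 of 3 E(spl) bHLH genes and 6 of 12 genes of the TORC1 list were higher, and 3 of 8 ribosome biogenesis genes were lower. Leaving out 1 replicate gave 25 to 154 calls without the marked cells, with a single sample left in 1 condition that is assumed to vary like the others.

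The response of members was compared with that of neuroblasts over 2 replicates a condition, where a low count of calls does not show that the responses were alike. The interaction without the marked cells was called for 4 of 5004 genes (0.0799%), all lower in starved members relative to neuroblasts, and with all cells for 11 of 6107 (0.18%). Obp99a, an odorant-binding protein gene, had 1330 and 70.8 CPM in members of Starvation A and B, against 1032 and 4839 CPM in Normal B and C, and in neuroblasts 748 and 65.8 CPM, against 123 and 335 CPM. A single cell gave 54.4% of its UMIs in Normal C. For the other 3 genes the level also rested on few cells. Cyp6g2 had 132 UMIs in Normal B, all of them in 1 cell, and of the UMIs in Normal C a single cell gave 55.4% for Ama and 84.8% for CG6356.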

How the data were processed

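Libraries were made with a 10x Genomics Chromium 3' kit, for which labels and methods name different versions. UMIs were counted by the authors in Cell Ranger with FlyBase release r6.22, and raw counts of 17493 genes were deposited without normalization. The aggregated matrices equalled the single libraries at every entry. Members, lists and tests were chosen with earlier results of these data known. UMI counts were summed per replicate and tested with edgeR 4.0.16 (limma 3.58.1, R 4.3.3, TMM, filterByExpr), where the spread is that between replicates. DESeq2 1.42.0 was an alternative. Share tests used scipy 1.17.1, and doublets were scored with Scrublet in scanpy 1.11.5 on Python 3.11.15. Named genes are those of the lists and, per fit, up to 10 called genes in each direction by size of the log2 fold change, at average log2 CPM over 5 and with groups apart, or the same direction in every replicate. The fits were tested on simulated data. Other alternatives were a filter on low counts, separate libraries, all 3 rule genes and removal of high doublet scores. The numbers in the labels do not pair the samples. Gene positions are from the Ensembl annotation of BDGP6, which has Release 6 coordinates. Sequences are not given.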

Additional observations from a re-analysis of the deposited data

Results flagged for a closer look

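For 4 genes the starvation change of members differed from that of neuroblasts by the interaction test of edgeR without the marked cells. The differences on the log2 scale were -7.19 for Cyp6g2, -5.32 for Ama, -4.89 for CG6356 and -2.88 for Obp99a. With all members 11 genes passed, and these were CG13227 at -6.51, CG13033 at -5.996, Ama at -5.31, CG6356 at -4.89, CG11425 at -4.61, wrapper at -4.53, Ldsdh1 at -4.43, CG6218 at -3.55, Cyp6g2 at -2.98, Obp99a at -2.74 and CG8369 at -2.56. All 4 genes of the smaller fit were among the 11.

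Among barcodes left out of the comparisons because they held 4500 or more genes, 136 of 329 (41.3%) held 2 or 3 of Ocho, Tom and Brd. Whether they were single cells was not tested.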

How the results depend on the processing

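The starvation comparison called 0 genes with all members, 5 without the marked cells, 79 without a filter on low counts and 4 with the replicate block of label numbers over 4 libraries, where the correlation of same-numbered deviations was -0.02. Leaving out a replicate gave 0 to 113 calls. Without the marked cells there were 25 without Starvation A, 123 without Starvation B, 136 without Normal B and 154 without Normal C, and 47 calls with DESeq2, 222 without the filter, 8 without ring gland-rich cells, 184 at 500 CPM of the rule genes and 287 over separate libraries. A minimum of 10 or 20 members left 1 replicate a condition and gave no test. Settings that combine the removal of marked cells with another choice, the batch term and the minimum of 3 cells in the neuroblast fits were chosen after seeing the data.

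Members against neuroblasts called 767 genes, with 110 without the marked cells, 161 with DESeq2, 340 without high Scrublet scores, 5 with no replicate block, 106 thinned and 3544 against all other cells. With at least 3 cells there were 396, and without the marked cells 229, 146 with DESeq2, 221 at 500 CPM, 237 without ring gland-rich cells, 17 thinned, 34 with no replicate block and 110, 278, 173 and 159 without Starvation A, Starvation B, Normal B and Normal C. Leaving one out of the 2 pairs of the larger fit gave no test. With all 3 rule genes phm (-0.090), cu (-1.88) and CG6426 (-1.19) changed sign.

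The interaction called 11 genes, 4 without the marked cells, 1 with DESeq2 with and without them, 29 unfiltered, 6 over separate libraries, 42 with all 3 rule genes, 17 without high Scrublet scores and 14 to 52 without a replicate. CG13227 turned to 2.80 without the marked cells (1.17 with DESeq2) and lay between -7.63 and 3.13 without a replicate, Ldsdh1 to 1.49 and Cyp6g2 to 7.60 with all 3 rule genes, and Cyp6g2 lay between -4.86 and 1.87 without a replicate.

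The difference in share, -0.150 points, was 0.133 without the marked cells, 0.0625 with all 3 rule genes, 0.220 thinned without marked cells and -0.809 to 0.691 without a replicate. At these depths the sums of Starvation B, 169502 UMIs, limit genes at low levels.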
